A study of Mus musculus with 7 samples.

Results

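The platelet-derived growth factor (PDGF) family of the mouse was described by its 7 genes. These were the ligand genes Pdgfa, Pdgfb, Pdgfc and Pdgfd, the receptor kinase genes Pdgfra and Pdgfrb, and the receptor-like gene Pdgfrl. The genes were chosen by name and not by their values, but with earlier results of these data known. They were 7 of the 53465 genes in the table, and all 7 passed the filter on low counts that left 15645 genes to test. RNA was sequenced from bulk tumors of EMT6, a mouse mammary carcinoma cell line, after 500000 cells had been placed in the mammary fat pad of female Balb/c mice aged 6 to 8 weeks. The 3 EMT6-P libraries came from tumors of the parental line in mice given an isotype control antibody. The 3 EMT6-PTR libraries, which the labels call PDR, came from tumors of the anti-PD-L1 resistant variant in mice given the anti-PD-L1 antibody clone 80, and 1 more library came from a metastasis of that variant. Antibody was given at 250 μg per mouse every 3 days from day 1 until the endpoint. The labels do not say whether resistant cells were implanted again or the tumors became resistant under treatment. The resistant tumors differed from the parental tumors in the antibody and in resistance, and these 2 cannot be told apart. The labels do not state that each tumor came from its own animal, so the p-values measure the spread between these samples.

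PDGF ligands are secreted dimers. PDGF-A and PDGF-B are cut inside the cell by furin-type convertases, while PDGF-C and PDGF-D are secreted with a CUB domain that proteases such as the plasminogen activators remove before the ligand can bind. The alpha receptor, a tyrosine kinase of fibroblasts and mesenchymal progenitors, binds PDGF-A, PDGF-B and PDGF-C, whereas the beta receptor, known from pericytes and other mural cells, binds PDGF-B and PDGF-D. In carcinomas the ligands are commonly made by tumor, endothelial and myeloid cells and act on the stroma. In bulk tumors, fewer cells of a type and less RNA per cell cannot be told apart.

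Promoter sequences of 4 of the 7 members were in the RefSeq table for GRCm38.p6, and those of 3 are shown because Pdgfc and Pdgfra were high in the same libraries in which Pdgfa was low. Each run is the 250 bases before an annotated transcription start, written 5′ to 3′ in the direction of the gene, with the GC box GGGCGG on either strand in capitals.
Pdgfc, chr3:81036166-81036415, plus strand: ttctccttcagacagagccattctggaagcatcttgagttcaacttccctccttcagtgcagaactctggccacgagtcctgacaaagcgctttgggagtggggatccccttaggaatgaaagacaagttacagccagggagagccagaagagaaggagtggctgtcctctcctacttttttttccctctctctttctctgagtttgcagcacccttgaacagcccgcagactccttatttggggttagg
Pdgfra, chr5:75152001-75152250, plus strand: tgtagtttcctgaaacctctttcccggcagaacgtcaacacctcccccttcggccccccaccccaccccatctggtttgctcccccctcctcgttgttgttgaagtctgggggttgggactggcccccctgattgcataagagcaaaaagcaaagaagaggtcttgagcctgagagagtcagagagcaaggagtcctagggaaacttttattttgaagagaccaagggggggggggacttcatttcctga
Pdgfa upstream of the inner start, chr5:138994282-138994531, minus strand: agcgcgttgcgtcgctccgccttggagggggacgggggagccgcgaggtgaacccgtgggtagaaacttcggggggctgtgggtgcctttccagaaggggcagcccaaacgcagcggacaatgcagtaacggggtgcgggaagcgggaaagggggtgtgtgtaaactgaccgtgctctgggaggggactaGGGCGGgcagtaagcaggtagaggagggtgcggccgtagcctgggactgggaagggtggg
Pdgfa upstream of the outer start, chr5:138994945-138995194, minus strand: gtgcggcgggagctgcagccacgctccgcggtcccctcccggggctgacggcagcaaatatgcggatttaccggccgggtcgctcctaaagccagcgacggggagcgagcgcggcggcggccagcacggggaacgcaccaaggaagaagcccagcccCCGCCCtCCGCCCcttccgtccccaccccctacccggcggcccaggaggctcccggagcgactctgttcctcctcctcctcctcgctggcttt
Other motifs were searched on both strands, and the shares of all promoters of this length that held each are given with them. A TATA box was written as TATAAA and stood in 12.4% of the 32851 promoters in the table, while the CCAAT box stood in 33.8% and the GC box in 32.7% of them. An AP-1 motif was written as TGANTCA and stood in 6.75% of promoters. For the E-box, found in 6.02% of promoters, the letters searched were CACGTG. Neither the Pdgfc nor the Pdgfra window held any of the 5 motifs. The Pdgfa windows held 1 and 2 GC boxes and none of the other motifs. The GC content was 50.8% upstream of Pdgfc and 54.4% upstream of Pdgfra, near the median of 52.4% over all promoters. It was 66.4% and 72.4% upstream of the Pdgfa starts, and the second value was above that of 93.6% of promoters. The Pdgfd window, not shown, held 1 TATA box and no other of these motifs. These matches describe the letters in the windows and were not tested against expression.

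On GRCm38, Pdgfa (ENSMUSG00000025856) lies at chr5:138976014-138997370 and Pdgfb (ENSMUSG00000000489) at chr15:79995874-80014977, both on the minus strand. Pdgfc (ENSMUSG00000028019) lies at chr3:81036416-81214040, Pdgfd (ENSMUSG00000032006) at chr9:6168584-6378850, Pdgfra (ENSMUSG00000029231) at chr5:75152292-75198215 and Pdgfrl (ENSMUSG00000031595) at chr8:40926212-40990785, all on the plus strand. Pdgfrb (ENSMUSG00000024620) lies on chromosome 18. Antisense genes share 147 exon bases with Pdgfc and 456 with Pdgfra, and had at most 27 and 24 counts in any library.

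Total estimated counts were 20430110 to 25213472 per library. In EMT6-PTR replicate 2, 13.85% of the counts lay on CT010467.1, against 0.433% to 1.35% in the other libraries. EMT6-PTR replicate 3 stood apart. Its summed level of 6 carcinoma epithelial markers was 611.5 CPM (counts scaled to library size, with upper-quartile factors), against 2519 to 2728 CPM in the 3 EMT6-P tumors and 2610 and 2378 CPM in EMT6-PTR replicates 1 and 2. Its Krt8 level, the main keratin of these tumors, was 505 CPM against 1755 to 1898 CPM in EMT6-P. The metastasis, whose source label still reads breast tumor, held 8227 CPM of 6 lung markers, which summed to between 1.45 and 26.1 CPM in the 6 primary tumors. In EMT6-PTR replicate 1, 6 skeletal muscle markers summed to 3421 CPM, against 9.06 to 596 CPM in EMT6-P.

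The primary tumors of the 2 groups were compared to ask which PDGF genes differed in the resistant variant. No member passed the test: 0 of 7 had a Benjamini-Hochberg adjusted p under 0.05 by the quasi-likelihood test of edgeR, beside 0% of all 15645 genes, whose smallest adjusted p was 0.421. At an unadjusted p under 0.05 the count was also 0 of 7, beside 11.4% of all genes. DESeq2 called 0 of 7 members and 1.8% of all genes, but gave no adjusted p for Pdgfd, and limma-voom called no gene. The values of EMT6-P and EMT6-PTR did not overlap for 1 member, Pdgfa, beside 21.3% of all genes.

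Pdgfa, which encodes the PDGF-A chain and is a typical product of epithelial cells, was at 103, 91.7 and 107 CPM in EMT6-P replicates 1 to 3. It was at 86.6, 65.7 and 36.4 CPM in EMT6-PTR replicates 1 to 3 and at 51.0 CPM in the metastasis. Every resistant library was below the lowest parental one, but EMT6-PTR replicate 1 only slightly. The means were 101 ± 8.16 CPM (SD, n = 3) and 62.9 ± 25.2 CPM (SD, n = 3), a log2 fold change of -0.68 with SE 0.30 and an adjusted p of 0.450 by edgeR. Leaving out single tumors gave log2 fold changes from -0.99 (EMT6-PTR replicate 1 omitted) to -0.41 (EMT6-PTR replicate 3 omitted), so its size, though not its direction, rested in part on these libraries. An antisense gene, 6330403L08Rik, shares 813 exon bases with Pdgfa and had 152 to 481 counts per library. The kit was stranded, but the strand setting of the counting is not given in the sources used here, so reads of the 2 genes may not be fully separated.

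Pdgfb, the PDGF-B chain that endothelial cells and platelets release to recruit mural cells, was at 75.1, 77.5 and 87.6 CPM in EMT6-P. It was at 94.5, 98.1 and 21.7 CPM in EMT6-PTR and at 85.3 CPM in the metastasis. EMT6-PTR replicates 1 and 2 lay above every parental tumor and replicate 3 far below all of them. The means were 80.1 ± 6.66 CPM (SD, n = 3) and 71.4 ± 43.1 CPM (SD, n = 3), and the log2 fold change was -0.17 with SE 0.52 and an adjusted p of 0.911 by edgeR. Without EMT6-PTR replicate 3 it turned to 0.26 with SE 0.11, with an adjusted p of 0.242. Of the cells known to make PDGF-B, 10 endothelial markers summed to 178 CPM in EMT6-PTR replicate 3, inside the 174 to 217 CPM of EMT6-P, but 4 of them lay below the parental range and 1 above it. Cdh5 was at 25.9 CPM against 39.4 to 44.0 CPM and Kdr at 7.81 against 11.8 to 16.7 CPM, whereas Vwf was at 24.0 against 2.78 to 7.48 CPM. The 8 platelet markers summed to 45.9 CPM in that tumor, inside the 35.5 to 58.8 CPM of EMT6-P, with 4 above the range, 1 below it and 2 at 0. Pf4 was the low one, at 5.16 against 20.6 to 47.3 CPM, and Gp1bb was among the high ones, at 31.3 against 6.73 to 11.4 CPM. The 8 macrophage markers summed to 1562 CPM in that tumor, below the 2092 to 2531 CPM of EMT6-P, with 4 below the range and 1 above it. The 6 carcinoma epithelial markers summed to 611.5 CPM there against 2519 to 2728 CPM, with 4 below the range and 0 above it. The part of these markers in the result was not tested.

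Pdgfc, a CUB-domain ligand of the alpha receptor, was at 75.7, 93.0 and 80.9 CPM in EMT6-P. It was at 73.0, 78.6 and 283 CPM in EMT6-PTR and at 165 CPM in the metastasis. EMT6-PTR replicates 1 and 2 were level with the parental tumors, and only replicate 3 and the metastasis were higher. The means were 83.2 ± 8.86 CPM (SD, n = 3) and 145 ± 120 CPM (SD, n = 3), and the log2 fold change was 0.80 with SE 0.54 and an adjusted p of 0.562 by edgeR. Without EMT6-PTR replicate 3 it was -0.14 with an adjusted p of 0.549, so the direction of the group difference came from 1 library.

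Pdgfd, the CUB-domain ligand of the beta receptor, was close to the limit of detection, with 12, 23 and 16 counts in EMT6-P, 31, 15 and 7 counts in EMT6-PTR and 28 counts in the metastasis. On the CPM scale it was at 0.585, 1.07 and 0.755 in EMT6-P, at 1.35, 0.835 and 0.274 in EMT6-PTR and at 1.12 in the metastasis. The groups overlapped, and the highest and the lowest of the 7 values were both from EMT6-PTR. The log2 fold change was 0.021 with SE 0.61 and an adjusted p of 0.990 by edgeR, and it ranged from -0.57 to 0.45 when single tumors were omitted. At these counts a direction was not shown.

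Pdgfra, the alpha receptor kinase, was at 31.2, 52.1 and 38.5 CPM in EMT6-P. It was at 32.6, 61.7 and 345 CPM in EMT6-PTR and at 230 CPM in the metastasis. EMT6-PTR replicate 1 was inside the parental range and replicate 2 just above it, while replicate 3 was at 8.50 times and the metastasis at 5.66 times the EMT6-P mean. The means were 40.6 ± 10.6 CPM (SD, n = 3) and 146 ± 173 CPM (SD, n = 3), so that the SD in EMT6-PTR exceeded the mean. The log2 fold change was 1.85 with SE 0.85 and an adjusted p of 0.457 by edgeR, and 1.87 with an adjusted p of 0.187 by DESeq2. Without EMT6-PTR replicate 3 it was 0.21 with SE 0.32 and an adjusted p of 0.733.

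Pdgfrb, the beta receptor kinase, was at 108, 155 and 214 CPM in EMT6-P. It was at 145, 309 and 562 CPM in EMT6-PTR and at 167 CPM in the metastasis. EMT6-PTR replicate 1 and the metastasis lay inside the parental range, and replicates 2 and 3 lay above it at 1.94 and 3.53 times the EMT6-P mean. The means were 159 ± 53.0 CPM (SD, n = 3) and 339 ± 210 CPM (SD, n = 3), with a log2 fold change of 1.09, SE 0.50 and an adjusted p of 0.457 by edgeR. It stayed above 0 when any single tumor was omitted, from 0.51 without EMT6-PTR replicate 3 to 1.45 when EMT6-PTR replicate 1 was omitted.

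Pdgfrl, whose product resembles the outer part of the receptors but has no kinase domain, was at 3.41, 5.23 and 4.39 CPM in EMT6-P. It was at 4.71, 10.1 and 3.44 CPM in EMT6-PTR and at 3.08 CPM in the metastasis. Only EMT6-PTR replicate 2 stood above the parental tumors, and the metastasis had the lowest value of all 7 libraries. The log2 fold change was 0.48 with SE 0.45 and an adjusted p of 0.664 by edgeR. Without EMT6-PTR replicate 2, the library with 13.85% of its counts on CT010467.1, it was -0.089, the opposite sign.

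**Figure D1:**
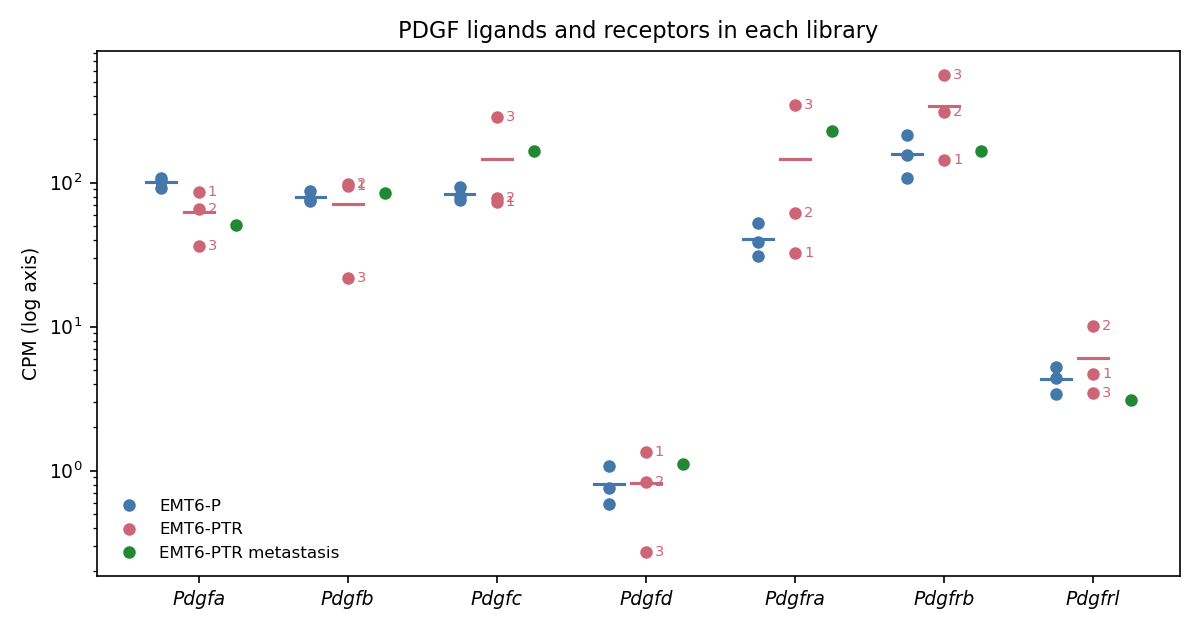
Points are CPM on the upper-quartile scale (vertical log axis) of the 7 PDGF genes in 3 EMT6-P tumors (blue), 3 EMT6-PTR tumors (red, numbered by replicate) and 1 metastasis (green), with short lines at the group means. EMT6-PTR replicate 3 is the highest primary tumor for Pdgfc, Pdgfra and Pdgfrb and the lowest for Pdgfa, Pdgfb and Pdgfd, and the blue and red points stay apart for Pdgfa only.

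The spread between tumors was larger in the resistant group for all 7 members. The coefficient of variation was 8.10% to 33.3% in EMT6-P and 40.1% for Pdgfa to 118% for Pdgfra in EMT6-PTR. The same held for 82.8% of all genes tested, with a median of 10.8% in EMT6-P and 27% in EMT6-PTR. Among the primary tumors, EMT6-PTR replicate 3 was the highest for 3 members and the lowest for 3.

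Each EMT6-PTR tumor was next set alone against the EMT6-P tumors, and a gene was counted where it lay outside their range and at least 2-fold from their mean log2 CPM. This count has no replicate and no test. EMT6-PTR replicate 1 had 0 of 7 members past this limit, beside 5.25% of all genes. EMT6-PTR replicate 2 had 2 of 7, Pdgfrb and Pdgfrl, which lay 1.01 and 1.22 above the EMT6-P mean on the log2 scale, beside 8.4% of all genes. EMT6-PTR replicate 3 had 6 of 7, beside 24.9% of all genes. In that tumor Pdgfra lay 3.12, Pdgfrb 1.87 and Pdgfc 1.77 above the EMT6-P mean on the log2 scale, and Pdgfb lay at -1.87, Pdgfa at -1.46 and Pdgfd at -1.26, whereas Pdgfrl at -0.31 was inside the parental range. The tumor thus held more transcript of both receptor kinases and of PDGF-C, and less of PDGF-A and PDGF-B. The Pdgfd value rested on 7 counts there against 12, 23 and 16 in EMT6-P, too few to show a direction. Over all genes the same differences had a median of -0.026 and an SD of 1.11 in replicate 3, against SDs of 0.65 and 0.73 in replicates 1 and 2.

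**Figure D2:**
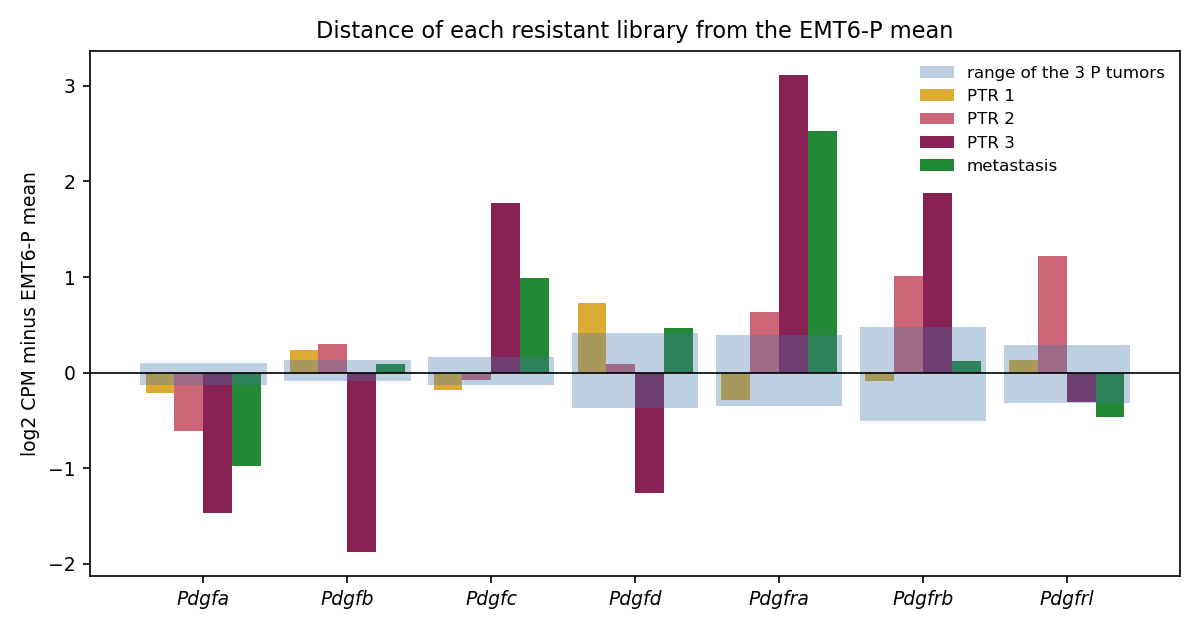
Bars give the log2 CPM of each EMT6-PTR tumor and of the metastasis minus the EMT6-P mean (vertical axis, log2 units) for each PDGF gene, and the blue band is the range of the 3 EMT6-P tumors. The bars of EMT6-PTR replicate 3 run from -1.87 for Pdgfb to 3.12 for Pdgfra and point the same way as those of the metastasis for Pdgfa, Pdgfc, Pdgfra, Pdgfrb and Pdgfrl. Of these, the Pdgfrb bar of the metastasis and the Pdgfrl bar of EMT6-PTR replicate 3 end inside the blue band.

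Markers of stromal cells also differed in EMT6-PTR replicate 3. The summed level of 10 fibroblast markers was 26330 CPM, against 6188 to 8526 CPM in EMT6-P and 7299 and 10220 CPM in the other EMT6-PTR tumors. Of these 10 genes, 6 were above the parental range, with Dcn at 3346 against 32.2 to 55.2 CPM and Col3a1 at 9088 against 734 to 1165 CPM, while Thy1, at 6.68 against 63.2 to 114 CPM, was among the 3 below it. The metastasis had 14890 CPM of these markers, with Dcn at 885 CPM. The 10 pericyte and smooth muscle markers summed to 163 CPM in EMT6-PTR replicate 3, against 717 to 915 CPM in EMT6-P, with 9 of 10 below the parental range, Acta2 at 54.2 CPM and Cnn1 at 0 counts. The 1 exception was Notch3, above the parental range at 38.4 CPM. Pdgfrb was thus at its highest in the library with the lowest sum of mural markers. In EMT6-PTR replicate 2, where Pdgfrb was also high, the mural list was at 857 CPM, inside the parental range, with 661 CPM from Acta2. Rgs5 was above its parental range there, at 35.8 against at most 26.6 CPM. So were Cspg4 (60.8 against 49.1 CPM), Abcc9 (16.3 against 12.5 CPM) and Notch3 (24.0 against 11.4 CPM). Des (3.73 against at least 4.44 CPM) and Cnn1 (1.84 against 2.74 CPM) were below theirs, and the other markers inside. The fibroblast list, at 10220 CPM, was above its parental range. The part of these markers in the PDGF results was not tested.

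Per kilobase of exon, which allows levels of different genes to be compared, the order in EMT6-P was Pdgfa at 32.3, Pdgfrb at 29.1, Pdgfb at 19.2 and Pdgfc at 16.3 CPM per kilobase. Neighbours among these 4 overlapped over the 3 tumors. Pdgfra followed at 4.05, Pdgfrl at 1.39 and Pdgfd at 0.255 CPM per kilobase, and no value of these 3 overlapped with the gene above it. In EMT6-PTR the order was Pdgfrb at 61.8, Pdgfc at 28.5, Pdgfa at 20.2, Pdgfb at 17.2 and Pdgfra at 14.6 CPM per kilobase. Neighbours among these genes overlapped. Pdgfrl at 1.94 and Pdgfd at 0.260 CPM per kilobase came last in this group too. In the single metastasis Pdgfc, Pdgfrb and Pdgfra led, at 32.4, 30.5 and 22.9 CPM per kilobase, and Pdgfb at 20.5 and Pdgfa at 16.3 CPM per kilobase came after them.

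The sum of the 4 ligand genes varied little, from 60.4 to 72.7 CPM per kilobase over all 7 libraries, but its makeup did not stay the same. Pdgfa made up 44.1% to 50.0% of the sum in EMT6-P, and 42.6%, 34.9% and 16.1% in EMT6-PTR replicates 1 to 3. Pdgfc made up 22.2% to 27.4% in EMT6-P and 22.0%, 25.6% and 76.6% in EMT6-PTR replicates 1 to 3. The Pdgfb share was 27.3% to 29.4% in EMT6-P and 34.8%, 39.1% and 7.19% in EMT6-PTR. In EMT6-PTR replicate 2 it was the largest ligand share, and in replicate 3 Pdgfc held that place. In the metastasis Pdgfc made up 46.5%, Pdgfb 29.5% and Pdgfa 23.5%. Pdgfd did not exceed 0.657% in any library.

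The sum of the 2 receptor kinase genes was 22.9 to 42.9 CPM per kilobase in EMT6-P, and 29.7, 62.6 and 137 CPM per kilobase in EMT6-PTR replicates 1 to 3. It was 53.4 CPM per kilobase in the metastasis. Pdgfra made up 8.95% to 15.5% of this sum in EMT6-P, 11.0% and 9.82% in EMT6-PTR replicates 1 and 2, 25.1% in replicate 3 and 42.9% in the metastasis. Thus Pdgfrb was the more abundant receptor transcript per kilobase in all 7 libraries when exons of all transcripts were joined. With the length of the longest transcript instead, the Pdgfra share was 32.8% in EMT6-PTR replicate 3 and 52.2% in the metastasis, where the order of the receptors then turned.

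**Figure D3:**
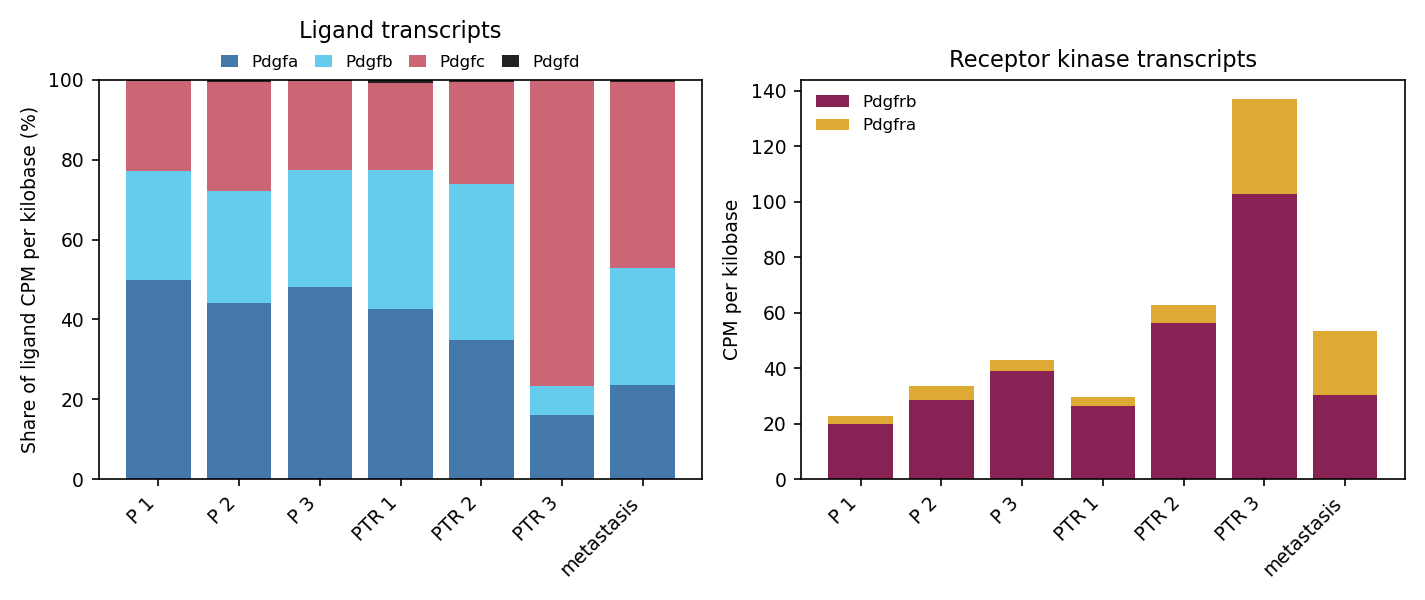
The left bars show the share of each ligand gene in the summed ligand CPM per kilobase of exon (percent), and the right bars the CPM per kilobase of the 2 receptor kinase genes, for the 3 EMT6-P tumors, the 3 EMT6-PTR tumors and the metastasis. Pdgfc takes 76.6% of the ligand sum in EMT6-PTR replicate 3 and 46.5% in the metastasis, and the receptor sum is highest, at 137 CPM per kilobase, in EMT6-PTR replicate 3.

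The metastasis was compared with the primary EMT6-PTR tumors. With 1 library there was no test, and 0 of 7 members were at least 2-fold from the EMT6-PTR mean log2 CPM and outside the EMT6-PTR range, beside 17.7% of all genes. The differences were 1.37 for Pdgfra, 0.62 for Pdgfd, 0.54 for Pdgfb, 0.49 for Pdgfc, -0.22 for Pdgfa, -0.81 for Pdgfrb and -0.81 for Pdgfrl on the log2 scale. Of these, only Pdgfrl lay outside the EMT6-PTR range. The wide range of that group came from EMT6-PTR replicates 1 and 3: omitting replicate 3 made the count 3 (Pdgfc and Pdgfra higher, Pdgfrl lower), beside 26.4% of all genes, and omitting replicate 1 made it 2 (Pdgfd higher, Pdgfrb lower), beside 17.7%. Omitting replicate 2 left it at 0, beside 17.8%. Against the EMT6-P mean, Pdgfra lay 2.53 and Pdgfc 0.99 higher, Pdgfa lay at -0.98, and Pdgfb and Pdgfrb differed by 0.094 and 0.12. Besides the lung markers, 10 endothelial markers summed to 1351 CPM in this library against 178 to 232 CPM in EMT6-PTR, and 5 leukocyte markers to 680 CPM against 41.1 to 105 CPM. Of the leukocyte sum, 585 CPM came from S100a8, a neutrophil gene, while Ptprc, carried by all leukocytes, was at 90.0 CPM, inside the 33.0 to 92.5 CPM of EMT6-PTR. Their part in the PDGF values was not tested.

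Genes around the receptors were counted from lists written for this pathway. Of 10 genes for ligand processing and extracellular partners, 0 passed the test by edgeR, DESeq2 or limma-voom. At an unadjusted p under 0.05, beside 11.4% of all genes in either direction, 1 was higher. That gene was Lrp1, an endocytic receptor known to bind the beta receptor, with 794 CPM in EMT6-P and 874, 1194 and 1571 CPM in EMT6-PTR. Its log2 fold change was 0.61 with SE 0.24 and an adjusted p of 0.433 by edgeR, and its lowest EMT6-PTR value lay inside the parental range. Plat and Plau, the tissue and urokinase plasminogen activators that cleave PDGF-C and PDGF-D respectively, were both low in EMT6-PTR replicate 3. Plat had 127 CPM in EMT6-P and 121, 85.3 and 52.7 CPM in EMT6-PTR, with a log2 fold change of -0.56, SE 0.30 and an adjusted p of 0.489 by edgeR. Plau had 216 CPM in EMT6-P and 213, 302 and 29.3 CPM in EMT6-PTR, so the tumor with the most Pdgfc had the least of both activators. Nrp1, a co-receptor, had a log2 fold change of 0.26 with an adjusted p of 0.587 by edgeR.

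Of 22 adaptors, kinases and enzymes that bind the receptors, 0 passed the edgeR test. At an unadjusted p under 0.05, 2 were higher and 0 lower, beside 11.4% of all genes in either direction. The median log2 fold change was 0.15, beside 0.025 over all genes. Sos2, an exchange factor for Ras, was at 25.6 CPM in EMT6-P and 44.2, 36.5 and 39.7 CPM in EMT6-PTR. All 3 resistant tumors were above the parental ones, and the log2 fold change was 0.65 with SE 0.13 and an adjusted p of 0.421 by edgeR, against 0.00435 by DESeq2. Pik3r1, a regulatory subunit of PI3 kinase, was at 32.8 CPM in EMT6-P and 42.3, 56.9 and 352 CPM in EMT6-PTR, with a log2 fold change of 2.20, SE 0.81 and an adjusted p of 0.427 by edgeR. Like Pdgfra it was by far highest in EMT6-PTR replicate 3, and without that tumor its log2 fold change was 0.59. Stat3 had a log2 fold change of 0.36 with an adjusted p of 0.470 by edgeR.

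Of 12 negative regulators, 0 passed the edgeR test. At an unadjusted p under 0.05, beside 11.4% of all genes in either direction, 1 was higher. This was Ptprj, a receptor phosphatase that acts on PDGF receptors, with 50.6 CPM in EMT6-P and 61.6, 71.3 and 64.8 CPM in EMT6-PTR. Its groups did not overlap, which held for 2 of the 12 beside 21.3% of all genes. Its log2 fold change was 0.38 with SE 0.14 and an adjusted p of 0.427 by edgeR. The ubiquitin ligase gene Cblb was at 0.55 with an adjusted p of 0.469, and the phosphatase gene Ptpn12 at -0.39 with an adjusted p of 0.505, both by edgeR. The median of the list was 0.020.

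The 16 serum and PDGF response genes, most of them immediate early genes that growth factors raise within minutes to hours, had a median log2 fold change of -0.24 between the groups. None passed the edgeR test, and 1 was higher and 0 lower at an unadjusted p under 0.05, beside 11.4% of all genes in either direction. Nr4a1, an orphan nuclear receptor, was at 9.31 CPM in EMT6-P and 16.4, 37.1 and 18.3 CPM in EMT6-PTR, without overlap, and its log2 fold change was 1.36 with SE 0.40 and an adjusted p of 0.421 by edgeR. Ier2 was lower without overlap, at 80.4 CPM in EMT6-P against 62.8, 59.8 and 27.1 CPM in the resistant tumors, with a log2 fold change of -0.69, SE 0.32 and an adjusted p of 0.459 by edgeR. Ccl2, a monocyte chemokine first known as a PDGF-induced gene, was at -1.03 with SE 0.64 and an adjusted p of 0.537. In EMT6-PTR replicate 3 alone, the tumor with the most Pdgfra and Pdgfrb transcript, 13 of the 16 were both below the parental range and at least 2-fold below the EMT6-P mean log2 CPM, and 1, Nr4a1, was above by the same rule, with a median of -1.78 on the log2 scale, beside 1811 higher and 2092 lower of all genes and a median of -0.026. Fos was at 14.7 CPM there against 35.0 to 112 CPM in EMT6-P, and Fosl1 at 4.92 against 38.7 to 49.7 CPM. The metastasis had a median of 1.88 relative to another baseline, the EMT6-PTR mean, which includes replicate 3, beside -0.016 over all genes. Its Ier3 level was 991 CPM against 46.2 to 165 CPM in EMT6-PTR. By range alone, 14 of the 16 were below EMT6-P in EMT6-PTR replicate 3, beside 42.7% of all genes. In the metastasis 12 of the 16 were above EMT6-P, beside 39.8%. Many stimuli raise such genes, and a link between them and the receptor transcripts was not tested.

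**Figure D4:**
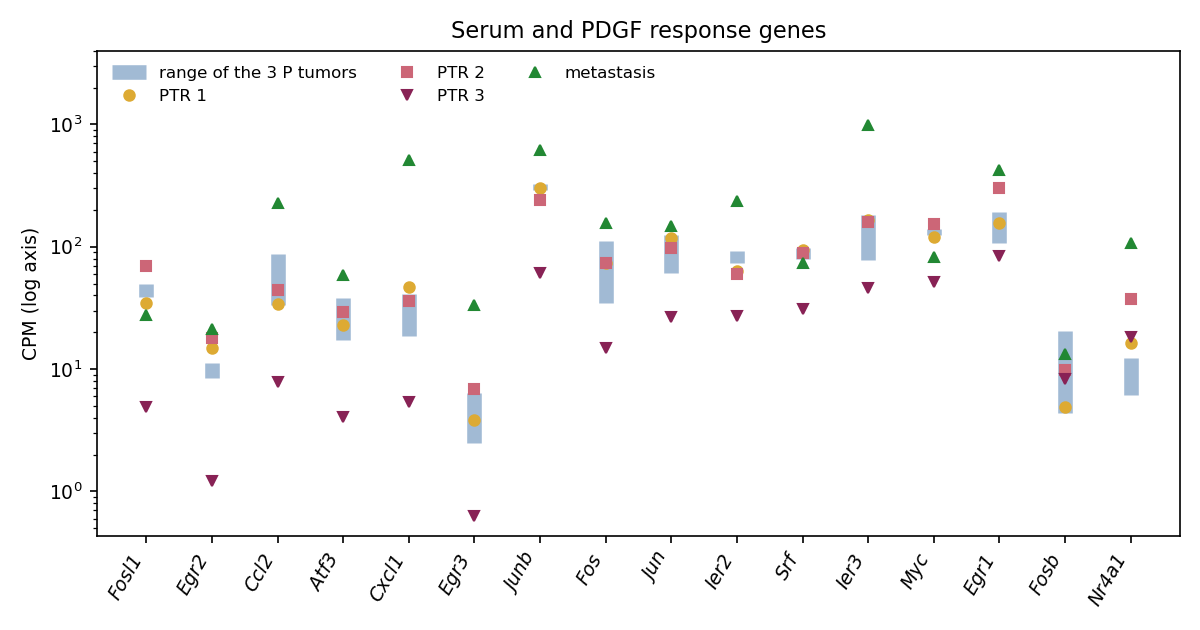
CPM (vertical log axis) of the 16 serum and PDGF response genes, ordered by their distance from EMT6-P in EMT6-PTR replicate 3, with the range of the 3 EMT6-P tumors as a blue bar and markers for each EMT6-PTR tumor and the metastasis. EMT6-PTR replicate 3 lies below the blue bar for 14 of 16 genes (42.7% of all genes), while the metastasis lies above it for 12 of 16 (39.8% of all genes).

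The genes whose log2 CPM followed each member most closely were taken by Pearson's r over the 7 libraries, which share the 2 libraries that stand far from the others. For Pdgfra these were Tcp11l2, Adgrb2 and Naaladl2, with r of 0.995, 0.995 and 0.993. For Pdgfc they were Zfp112, Fam229b and Hsf2bp, with r of 0.997, 0.996 and 0.995, and for Pdgfb they were Ddah1, Nid1, a basement membrane gene, and Fstl1, with r of 0.992, 0.991 and 0.989. Over the 5 libraries left without EMT6-PTR replicate 3 and the metastasis, r was 0.954, 0.917 and 0.992 for the Pdgfra genes and 0.831, 0.846 and 0.874 for the Pdgfb genes. Psmd10, Akr1b3 and 1810009A15Rik were nearest to Pdgfa, with r of 0.992, 0.992 and 0.991, and Gm16984, Rnf138 and Smad5 nearest to Pdgfrb, with r of 0.982, 0.978 and 0.976. Bdkrb2 with r of 0.994 was nearest to Pdgfd, at counts of 7 to 31 per library, and Myl9, a smooth muscle myosin light chain, with r of 0.977 nearest to Pdgfrl. No member was among the 3 nearest genes of another, and since these genes were the best of all those tested over only 7 points, the values are descriptions only.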

How the data were processed

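The deposited values are estimated counts per gene, which the authors made from stranded polyadenylated libraries with STAR 2.6.0a and RSEM 1.3.1 on GRCm38 with GENCODE M16, before filtering or normalization. Here the estimated counts were rounded, filtered with filterByExpr, scaled by the upper quartile and tested with edgeR 4.0.16 (glmQLFit, glmQLFTest) in R 4.3.3, 3 EMT6-PTR against 3 EMT6-P tumors, with Benjamini-Hochberg adjustment over all 15645 genes at a threshold of 0.05. SE is the log2 fold change divided by the square root of F. DESeq2 1.42.0 and limma 3.58.1 (voom) were alternatives. Log2 CPM used a prior count of 2, and exon lengths came from GENCODE M21. Of 53465 identifiers, 191 had no symbol. A count of 0 allows up to 3 counts, for counting error only. The fits were tested on simulated counts.

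The members and lists were chosen with earlier results of these data known. Named pathway genes are the 3 of each list with the smallest p. Plau, Dcn, Col3a1, Thy1, Acta2, Cnn1, Notch3, Rgs5, Cspg4, Abcc9, Des, Krt8, Cdh5, Kdr, Vwf, Pf4, Gp1bb, S100a8, Ptprc, Csf1r, Kit, Fos, Fosl1 and Ier3 were chosen after their values were seen. The nearest genes are the 3 with the highest Pearson's r.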

Additional observations from a re-analysis of the deposited data

How the results depend on the processing

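In 82 of 90 refits the log2 fold change of a member kept its direction, and no member was called under TMM scaling, DESeq2, limma-voom, no filter, at least 10 counts, the metastasis as an additional group, the replicate block or any tumor left out. The 8 that reversed were Pdgfd at -0.23 under limma-voom, -0.16 with the replicate block, and -0.16, -0.019 and -0.57 when EMT6-P replicate 1, EMT6-P replicate 3 or EMT6-PTR replicate 1 was left out, Pdgfrl at -0.089 without EMT6-PTR replicate 2, and Pdgfb at 0.26 and Pdgfc at -0.14 without EMT6-PTR replicate 3. The cause was not tested. With single tumors left out, the highest or lowest values on the other side were 0.45 for Pdgfd, 0.76 for Pdgfrl, -0.46 for Pdgfb and 1.12 for Pdgfc. Pdgfd was not tested with at least 10 counts in every sample, and it had no adjusted p by DESeq2. DESeq2 called 1 gene of the pathway lists (Sos2) and 281 of all genes, edgeR 0. With each tumor left out, the count of members without overlap was 1 to 3, with Pdgfa in each, namely 3 (adding Pdgfra and Pdgfrb) if EMT6-PTR replicate 1 was omitted and 2 (adding Pdgfb) if EMT6-PTR replicate 3 was omitted, beside 38.6% and 40% of all genes. Every alternative for this count was chosen after seeing the data. The count of members apart in the metastasis was 0 to 3, beside 17.7% to 26.4% of all genes. Same-numbered tumors deviated together with correlations of 0.259, 0.253 and 0.0384, so the numbers were not shown to pair the samples, and not every tumor correlated best with its own number. With the replicate block 0 genes were called, as without it. With the longest transcript the EMT6-P levels were 48.9 for Pdgfa, 27.2 for Pdgfb, 23.6 for Pdgfc, 5.94 for Pdgfra and 2.10 CPM per kilobase for Pdgfrl. With 3 tumors a group, 1 of them far from the others, and 7 to 31 counts for Pdgfd, differences of the size seen here did not pass the test.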

Other observations

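The other class III receptor kinases and their ligands, the closest relatives of the PDGF receptors, were counted beside the family. Of 7 genes, 0 passed the edgeR test. At an unadjusted p under 0.05, 1 gene, Kitl, was higher, beside 11.4% of all genes in either direction. Kitl, the ligand of Kit, was at 6.48 CPM in EMT6-P, at 6.89, 14.8 and 52.2 CPM in EMT6-PTR replicates 1 to 3 and at 51.6 CPM in the metastasis, the same 2 libraries in which Pdgfra and Pdgfc were highest. Its log2 fold change was 1.93 with SE 0.79 and an adjusted p of 0.437 by edgeR. Il34, a ligand of Csf1r, was at -0.62 with SE 0.27 and an adjusted p of 0.448, and Flt3l at 0.50 with an adjusted p of 0.567. Csf1r itself, a kinase of macrophages, was at 251 CPM in EMT6-P and at 358, 231 and 185 CPM in EMT6-PTR. Kit was at 34.0 CPM in the metastasis against 3.05 to 7.52 CPM in EMT6-PTR.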
